A study of Mus musculus with 6 samples.

Results

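Open chromatin was described around 8 genes of the bone morphogenetic protein (BMP) pathway in mouse kidney tubules: Id1, Id2, Id3 and Id4, the inhibitory SMAD genes Smad6 and Smad7, the ligand gene Bmp7 and the receptor gene Bmpr2. Gene positions were those of GENCODE release M21 on GRCm38. A peak region was taken for a gene when the summit of at least 1 of its peaks lay in the gene body or within 50 kb of it. That rule gave 158 of the 99359 regions of the series. The genes were chosen with an earlier result of these data in view, a higher rank after nephrectomy at a region upstream of Id3. The values of that region are therefore a description and no p-value is given for it. It enters the counts of calls and of groups that do not overlap, from which nothing is drawn about it. The libraries are ATAC-seq libraries: a transposase inserts sequencing adapters where DNA is not wrapped tightly in nucleosomes, so stretches of open chromatin appear as peaks of fragments. Each library was made from 3 proximal tubules of the S1 segment, the first stretch of tubule after the glomerulus, dissected by hand. There were 3 libraries of sham-operated mice (Sham) and 3 of mice that had lost 1 kidney by surgical excision (unilateral nephrectomy, UNx), all labelled 24 h. All were from wild-type male C57BL/6 mice operated at an age of 7 weeks. Whether the libraries of a group are separate mice is not in the labels, so p-values measure the spread between these libraries, which may be technical in part. Because the tubules were taken whole, a change in the share of a cell type and a change of accessibility per cell cannot be told apart.

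BMP ligands such as BMP7 bind type I receptors together with a type II receptor such as BMPR2, and the activated receptors phosphorylate SMAD1, SMAD5 and SMAD9. These join SMAD4, enter the nucleus and bind DNA near their targets. The Id genes are classic targets: ID proteins are helix-loop-helix proteins without a DNA-binding region, and they hold E proteins away from DNA. SMAD6 and SMAD7 are also induced by the pathway and inhibit it, which closes a feedback loop. BMP7 is known in the kidney for its part in nephron formation.

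The BMP-SMAD composite, a string known from Id gene enhancers, is GGCGNC or GACGNC followed, after 5 bases of any kind, by GTCT. It was searched on both strands in the 300 bases around each region's strongest summit, and it can overlap GGCGCC, which was also searched alone. It occurred in 7 of the 158 regions (4.43%) and in 192 of all 99359 regions (0.193%). The string was partly defined on these genes, so its presence here is not an independent result. The regions were also richer in G and C, with a median GC content of 54.0% against 49.4% over all regions. Of the 7 sites, 6 lay near the 4 Id genes and 1 was 76.9 kb downstream of the Bmp7 start. The 7 sites are shown because they match this string, with 15 bases on either side, read on the strand that carries the string. They are matches in the sequence, and binding of SMADs at them was not measured. Capitals mark the fixed blocks of the composite. In Id1 the string TGACGTCA, the binding sequence of the CREB family, forms the first bases of the sequence printed.
Id1, chr2:152735191-152735235, plus strand: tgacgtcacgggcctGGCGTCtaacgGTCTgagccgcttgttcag
Id2, chr12:25098839-25098883, minus strand: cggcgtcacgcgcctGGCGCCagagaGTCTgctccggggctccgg
Id3 upstream, chr4:136140525-136140569, plus strand: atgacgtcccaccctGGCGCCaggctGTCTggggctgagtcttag
Id3 intron, chr4:136144778-136144822, plus strand: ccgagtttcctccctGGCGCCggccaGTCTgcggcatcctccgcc
Id3 downstream, chr4:136147966-136148010, plus strand: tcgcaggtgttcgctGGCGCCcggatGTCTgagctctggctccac
Id4, chr13:48262875-48262919, plus strand: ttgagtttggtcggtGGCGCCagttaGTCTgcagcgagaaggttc
Bmp7, chr2:172863450-172863494, minus strand: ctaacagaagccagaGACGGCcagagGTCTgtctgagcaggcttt

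The SMAD palindrome GTCTAGAC occurred in none of the 158 windows around summits and in 0.283% of all regions. It did occur in the RefSeq promoter window (GRCm38.p6, 250 bases before to 50 after the start) of Smad6, where it begins 4 bases before the start and runs across it. RefSeq windows of 5 of the 8 genes were in the tables used here, and the palindrome occurred in 0.213% of the 32851 windows of all genes.
Smad6 start, chr9:64022045-64022074, minus strand: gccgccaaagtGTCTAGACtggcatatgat

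The next 3 windows of 300 bases, on the plus strand of GRCm38, cover the summits of 3 distal regions whose ranks in UNx lay above those in Sham, at 36.4 kb and 19.9 kb upstream of the Id3 start and 36.6 kb downstream of the Bmp7 start. They were picked for printing because they hold TGAGTCA, the binding sequence of the AP-1 family, marked in capitals. The windows of the Id2 regions 12.1 kb and 35.1 kb upstream, where UNx also lay above Sham, hold none of the strings searched. They also mark GGCGCC in the Bmp7 window and, in the second Id3 window, the reverse complement of the HNF4 string CAAAGTCCA. A match is a description of the sequence and does not show that a factor was bound.
Id3 36.4 kb upstream, chr4:136106916-136107215: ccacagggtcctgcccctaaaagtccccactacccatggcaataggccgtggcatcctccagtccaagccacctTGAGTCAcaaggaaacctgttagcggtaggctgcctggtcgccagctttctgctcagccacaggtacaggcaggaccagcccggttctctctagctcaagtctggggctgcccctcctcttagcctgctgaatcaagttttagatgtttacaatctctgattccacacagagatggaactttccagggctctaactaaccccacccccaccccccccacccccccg
Id3 19.9 kb upstream, chr4:136123427-136123726: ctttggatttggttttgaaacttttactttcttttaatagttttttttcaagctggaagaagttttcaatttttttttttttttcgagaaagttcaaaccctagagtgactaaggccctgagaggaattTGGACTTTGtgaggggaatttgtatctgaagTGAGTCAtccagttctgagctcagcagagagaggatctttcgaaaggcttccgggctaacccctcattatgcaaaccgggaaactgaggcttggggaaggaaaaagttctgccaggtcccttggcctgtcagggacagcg
Bmp7 36.6 kb downstream, chr2:172903575-172903874: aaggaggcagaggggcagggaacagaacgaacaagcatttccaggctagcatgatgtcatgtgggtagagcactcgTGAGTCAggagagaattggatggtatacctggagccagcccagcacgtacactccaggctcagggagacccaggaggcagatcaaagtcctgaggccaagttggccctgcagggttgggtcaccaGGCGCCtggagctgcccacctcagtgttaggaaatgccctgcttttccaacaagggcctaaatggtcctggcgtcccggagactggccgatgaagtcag

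The measure compared was the rank of a peak within its own list. Peaks were ordered by the deposited −log10 q, the 77355 strongest of each list were kept, and each was given a percentile near 100 for the strongest peaks, with 0 for a region absent from that list. Percentiles are given below in the order of libraries 1, 2 and 3, and differences between group means, in percentile points, are UNx minus Sham. The lists held 77355 to 97834 peaks in Sham and 93583 to 100999 in UNx, with Sham library 2 the shortest. The median −log10 q ranged from 12.1 in that library to 26.5 in UNx library 3, and read depth is unknown because the lists hold no counts. A region was called changed when its limma p-value, adjusted over the 74781 regions found in at least 3 of the 6 lists, was under 0.05.

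The chromatin around the 8 genes was mostly shared by both operations. Of the 158 regions, 87 (55.1%) were in all 6 lists, against 53.4% of all regions, and 121 were in at least 3 lists and were tested. Bmp7 had the most regions with 33 and Id4 the fewest with 6, and the other genes had 18 to 21. The rank groups did not overlap at 28 of the 158 (17.7%), with 21 higher and 7 lower in UNx. Over all regions 17.8% did not overlap, 9.0% higher and 8.83% lower. limma called 1 of the 121 tested regions, the one upstream of Id3 that was known when the genes were chosen, against 0.788% of all tested regions (0.435% higher and 0.353% lower). Without it the count was 0, with 24 regions, that one included, at an unadjusted p under 0.05; the same share over all tested regions was 18.6%. The count was also 0 when Sham library 2, Sham library 3, UNx library 1 or UNx library 3 was left out. Calls over all tested regions then fell from 589 to 21, 22, 4 and 14. The number of the 8 genes' regions in a list ranged from 110 in Sham library 2 to 127 in UNx library 3.

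**Figure D1:**
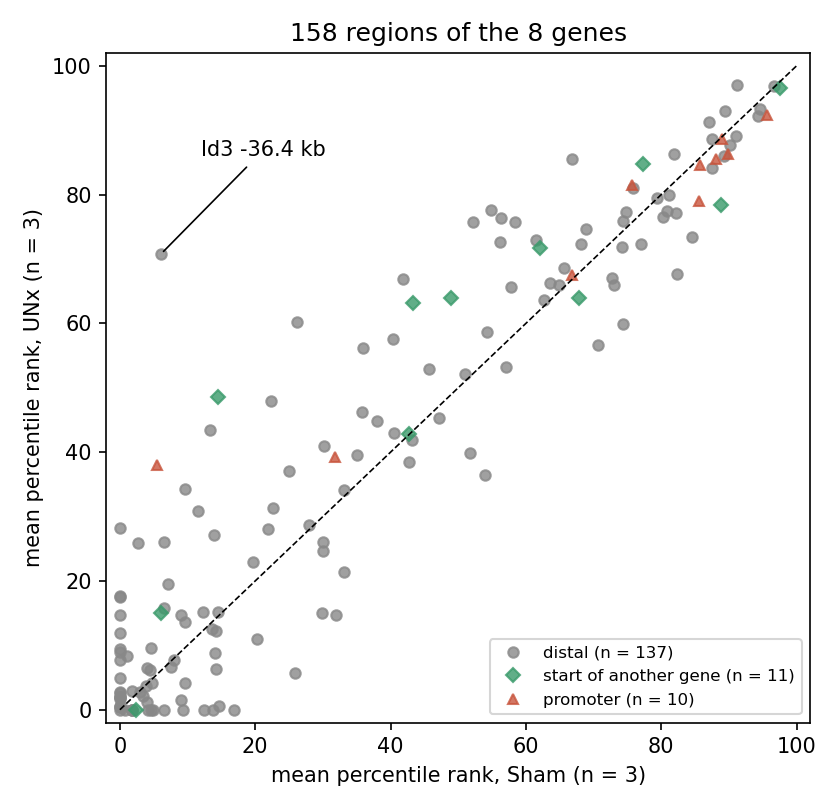
Mean percentile rank in the 3 UNx libraries (vertical axis) against the mean in the 3 Sham libraries (horizontal axis) for the 158 regions; the dashed line marks equal ranks, and triangles, diamonds and circles are promoter regions, regions at the start of another gene and distal regions. Most points lie near the line, and the region 36.4 kb upstream of Id3 stands far above it, at 6.01 in Sham and 70.7 in UNx.

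Regions were separated by the place of their strongest summit: 10 were promoters (within 1 kb of an annotated start of 1 of the 8 genes), 11 lay within 1 kb of the start of another annotated gene, and 137 were distal. All 8 genes had a promoter region in all 6 lists. None of the 10 promoter regions was called by limma, against 0.445% of all tested promoter regions, and 1 had an unadjusted p under 0.05. Their median difference was −0.756 points, and the median over all promoter regions was 0.144. The groups did not overlap at 2 of the 10, against 18.5% of all promoter regions, 9.71% higher and 8.74% lower.

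By mean percentile over the 6 libraries the order of the main promoters was Id2, Id4, Bmp7, Bmpr2, Id3, Smad7, Smad6 and Id1. The promoter of Id2 (chr12:25095943-25096523), whose protein binds E proteins like the other 3 ID proteins, ranked at 96.4, 96.9 and 93.8 in Sham and 94.1, 92.7 and 90.3 in UNx. It was the highest of the 8 main promoters in each of the 6 libraries. The promoter of Id4 (chr13:48260606-48261258) ranked at 91.4, 91.3 and 84.3 in Sham and 89.3, 86.6 and 90.1 in UNx. The promoter of Id3 (chr4:136143371-136144054) ranked at 88.5, 80.2 and 88.5 in Sham and 84.4, 88.5 and 81.0 in UNx. The groups overlapped at all 3 of these promoters. The largest of the 3 differences was that of Id2, −3.30 points, with SDs of 1.67 in Sham and 1.92 in UNx, and it did not pass the test (limma adjusted p = 0.320). The promoter of Id1 (chr2:152736051-152736555) was the weakest, at 61.5, 77.1 and 61.7 in Sham and 67.6, 73.7 and 61.2 in UNx. Its groups overlapped, and Sham library 2 was the highest of the 6.

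The promoter of Bmp7 (chr2:172939635-172940920), which encodes the ligand, ranked at 91.6, 87.4 and 90.8 in Sham and 91.4, 87.6 and 80.0 in UNx. The promoter of Bmpr2 (chr1:59762568-59764309), which encodes the type II receptor, ranked at 83.8, 87.7 and 92.8 in Sham and 90.3, 80.0 and 86.4 in UNx. Neither pair of groups was separated. From Id4 to Id3 in the order, the 4 neighbours had means between 88.8 and 85.2 and overlapped in their libraries, so their order is not resolved.

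The promoters of the inhibitory SMAD genes had differences of opposite sign. The main promoter of Smad7 ranked at 84.6, 87.4 and 85.0 in Sham and 81.8, 78.4 and 76.9 in UNx, a difference of −6.61 points with groups that did not overlap (limma adjusted p = 0.284). The promoter of Smad6 (chr9:64021801-64023370) ranked at 79.7, 75.7 and 71.7 in Sham and 87.1, 80.0 and 77.3 in UNx, where UNx library 3 lay below the highest Sham library (limma adjusted p = 0.482). Neither difference passed the test, and whether these 2 differences differ from each other was not tested.

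Id2 and Smad7 each had a second, weaker promoter region. The one of Id2 (chr12:25097253-25097527), 280 bp upstream of an annotated start, ranked at 12.9, 0 and 3.49 in Sham and 41.8, 40.2 and 32.0 in UNx. It was the promoter region with the largest difference of the 10, 32.5 points, with all UNx libraries above all Sham libraries (limma adjusted p = 0.119). It is absent from the Sham list with the fewest peaks, Sham library 2, and the part of list strength in the difference was not tested. The second region of Smad7 had overlapping groups, with means of 31.8 ± 9.57 in Sham and 39.2 ± 2.83 in UNx (SD, n = 3).

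**Figure D2:**
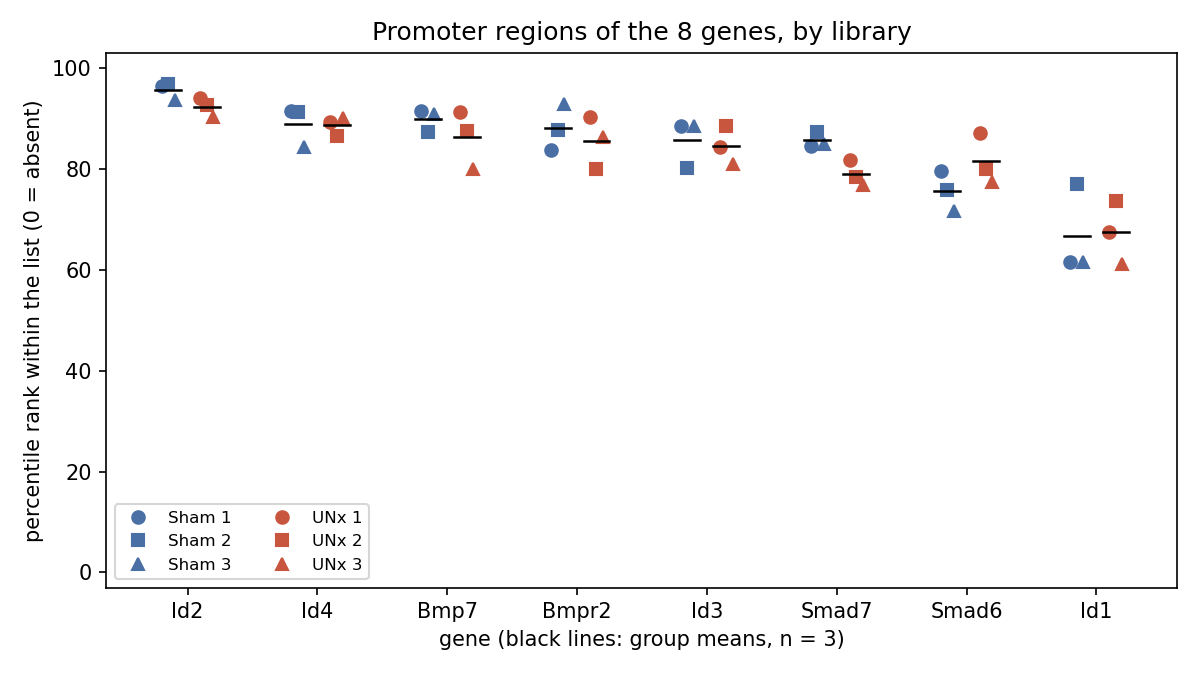
Percentile rank within its list (vertical axis, 0 for absent) of the main promoter region of each of the 8 genes, in order of mean rank; each point is 1 library, and the black lines are the means of 3 libraries. The Id2 promoter sits at 90.3 to 96.9, the Id1 promoter at 61.2 to 77.1, and the Smad7 promoter is the only one whose Sham and UNx points do not overlap.

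The Id3 locus held the largest difference of the 158 regions. At the intergenic region 36.4 kb upstream of the Id3 start (chr4:136106757-136107425), whose sequence is printed above, the percentiles were 18.0, 0 and 0 in Sham and 78.1, 60.1 and 73.9 in UNx. All UNx libraries were far above Sham library 1, and the region was absent from the 77355 strongest peaks of the other 2 Sham lists. The means were 6.01 ± 10.4 in Sham and 70.7 ± 9.43 in UNx (SD, n = 3), a difference of 64.7 points. In the full deposited lists a peak was also found in Sham library 3, with a deposited fold enrichment of 3.26, beside 5.78 in Sham library 1, and none in Sham library 2. The deposited fold enrichments in UNx were 13.2, 11.4 and 15.8; these are the authors' values over their caller's background within each library. The summits of the libraries with a peak lay within 14 bp of each other. The nearest annotated start of any kind was 30430 bp away, that of Gm26001. When each list was limited to its 20000 strongest peaks, the region was left in UNx library 1 alone and the difference was 5.15 points.

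Of the other 20 regions of Id3, 3 more were higher in UNx and 1 was lower with groups that did not overlap. Together with the region at 36.4 kb that made 5 of the 21 regions (23.8%), against 17.8% of all regions. This share includes the region that was known when the genes were chosen, so nothing is drawn from it. The intergenic region 19.9 kb upstream (chr4:136122950-136123899), also printed above, ranked at 52.9, 54.7 and 49.0 in Sham and 71.8, 75.9 and 79.4 in UNx. Every UNx library was above every Sham library, and the means differed by 23.5 points (limma adjusted p = 0.0629). The region 17.2 kb upstream (chr4:136125993-136126582) ranked at 49.9, 60.0 and 58.8 in Sham and 61.8, 83.3 and 73.0 in UNx, with a small gap between the groups (limma adjusted p = 0.193). In an intron of the neighbouring gene E2f2, 43.6 kb downstream of the Id3 start, a weak region had means of 11.5 ± 6.62 in Sham and 30.9 ± 7.21 in UNx. The region 16.8 kb downstream (chr4:136160098-136160655) was lower in UNx, at 58.0, 64.8 and 57.0 against 73.5, 69.0 and 80.8 in Sham (limma adjusted p = 0.187). Thus the 3 upstream regions at 36.4, 19.9 and 17.2 kb had higher ranks in UNx, while a region between the first pair, 23.3 kb upstream, had overlapping groups. A further region 38.7 kb upstream was found in Sham library 2 alone, at 41.5. The strongest distal region of Id3, in an E2f2 intron 37.1 kb downstream of the start, had means of 79.3 ± 0.872 and 79.5 ± 4.73.

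**Figure D3:**
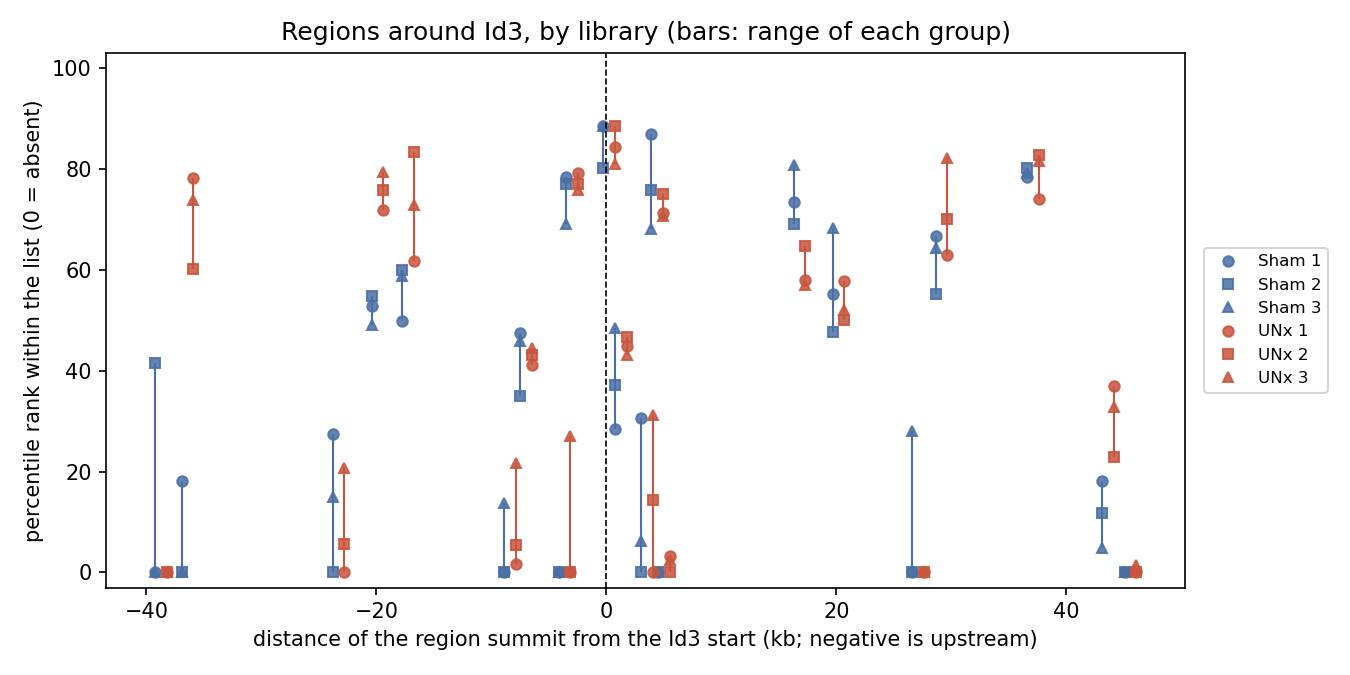
Percentile rank (vertical axis, 0 for absent) of the 21 regions of Id3 against the distance of their strongest summit from the Id3 start in kb (horizontal axis, negative upstream); each point is 1 library, Sham to the left and UNx to the right of each region, and bars span the 3 libraries of a group. At 36.4 kb upstream the UNx libraries lie at 60.1 to 78.1 and the Sham libraries at 0 to 18.0, while the groups overlap at the promoter.

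Across the 137 distal regions of the 8 genes the median difference was 1.07 points, with quartiles of −3.36 and 7.33; over all 80208 distal regions the median was 0.163, with quartiles of −6.42 and 6.56. The groups did not overlap at 23 of the 137 (16.8%), with 18 higher and 5 lower in UNx, against 17.7% of all distal regions, 8.83% higher and 8.85% lower. Without the Id3 region 36.4 kb upstream the count was 22 of 136 (16.2%), with 17 higher and 5 lower. The overall share is close to the background; the split between directions was uneven in the 8 genes and even over all regions, and it was not tested because the genes were chosen with results known.

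**Figure D4:**
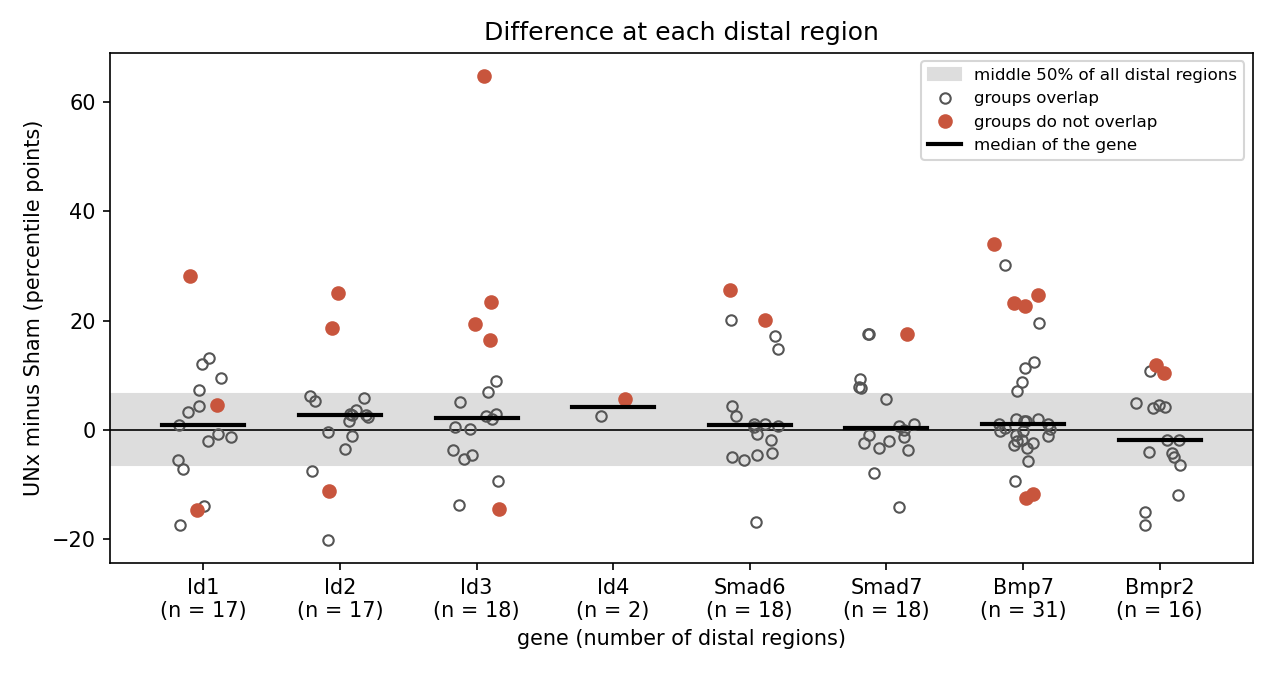
Difference in mean percentile rank, UNx minus Sham, in percentile points (vertical axis) at each distal region, by gene; filled points are regions whose groups do not overlap, black lines are the medians of each gene, and the grey band spans the quartiles of all distal regions. Filled points lie mostly above 0, led by the Id3 region at 64.7, and the medians of the genes run from −1.83 for Bmpr2 to 4.11 for Id4.

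Id2 had 17 distal regions, and groups at 3 of them (17.65%) did not overlap, against 17.7% of all distal regions. The region 12.1 kb upstream (chr12:25108811-25109437) ranked at 36.5, 50.7 and 38.4 in Sham and 65.3, 71.3 and 64.0 in UNx (limma adjusted p = 0.0961). The region 35.1 kb upstream (chr12:25131895-25132602), over an exon of the noncoding gene Gm17746, ranked at 53.0, 74.8 and 72.8 in Sham and 89.6, 84.0 and 83.1 in UNx (limma adjusted p = 0.0901). All UNx libraries lay above all Sham libraries at both regions, and neither passed the threshold. The difference of the second, 18.7 points, was 11.7 without Sham library 1. The region 8.9 kb downstream of the start was lower in UNx, with means of 84.6 ± 4.59 in Sham and 73.5 ± 4.15 in UNx (limma adjusted p = 0.161). The strongest distal region, 13.3 kb upstream and next to the one at 12.1 kb, ranked at 84.7, 92.9 and 90.7 in Sham and 91.2, 95.5 and 92.2 in UNx, with overlapping groups.

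Id1 had 17 distal regions, many of them in or near the neighbouring genes H13 and Bcl2l1. The intergenic region 30.4 kb downstream (chr2:152766362-152766806) was lower in UNx, at 69.7, 75.0 and 58.2 against 81.1, 87.9 and 78.2 in Sham (limma adjusted p = 0.139). Its neighbour 31.6 kb downstream also had a lower mean, with overlapping groups. The region 3.7 kb downstream, the strongest within 10 kb of the start in UNx, was higher there by 4.51 points, at 86.1, 86.5 and 86.5 against 84.5, 76.7 and 84.3 (limma adjusted p = 0.455). The strongest distal region, over H13 28.4 kb upstream, had means of 91.0 ± 4.31 in Sham and 89.0 ± 3.00 in UNx.

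Id4 had 6 regions, 2 of them distal. The region 33.3 kb upstream, in an intron of the noncoding gene A330033J07Rik (chr13:48227685-48228435), ranked at 94.0, 93.6 and 86.2 in Sham and 97.2, 96.4 and 97.2 in UNx. The UNx libraries were above all Sham libraries and close together, a difference of 5.69 points (limma adjusted p = 0.141). The difference was 3.17 without Sham library 3 and 1.008 with ranking by fold enrichment. At the start of another transcript, 23.5 kb upstream, the percentiles were 18.6, 0 and 24.8 in Sham and 66.0, 54.9 and 24.7 in UNx, so UNx library 3 fell just below Sham library 3.

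Distal regions with groups that did not overlap were found at both inhibitory SMAD genes. They were 2 of 18 at Smad6 (11.1%) and 1 of 18 at Smad7 (5.56%), against 17.7% of all distal regions. In Smad6, the intronic region 56.3 kb downstream of the start (chr9:63965436-63966116) ranked at 62.2, 52.5 and 54.1 in Sham and 76.5, 76.9 and 75.6 in UNx (limma adjusted p = 0.0871). Another intronic region, 4.8 kb downstream (chr9:64017067-64017310), ranked at 30.0, 29.3 and 7.74 in Sham and 43.0, 60.6 and 40.2 in UNx (limma adjusted p = 0.207). UNx was above Sham at both in every library. The strongest distal region of Smad6, 53.3 kb downstream and near the first of these, did not differ beyond its spread, with means of 87.6 ± 1.38 and 88.6 ± 1.31.

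In Smad7, a region at the end of the gene, 25.0 kb downstream of the start, ranked at 59.5, 53.0 and 62.5 in Sham and 75.1, 76.9 and 75.4 in UNx (limma adjusted p = 0.115). The difference of 17.5 points had the opposite sign to that of the Smad7 promoter. The strongest one, 24.6 kb upstream, had means of 94.6 ± 0.462 in Sham and 93.3 ± 2.28 in UNx.

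Bmp7 had 31 distal regions, with groups that did not overlap at 6 of them (19.35%), 4 higher and 2 lower in UNx. The share over all distal regions was 17.7%. Both of the larger differences among regions found in all 6 lists lay in an intron of the gene. At 36.6 kb downstream of the start (chr2:172903355-172903872), whose window is printed above, the percentiles were 27.9, 36.8 and 14.1 in Sham and 65.7, 54.6 and 60.4 in UNx, a difference of 34.0 points (limma adjusted p = 0.0787). At 34.0 kb downstream (chr2:172906057-172907086) they were 46.5, 53.2 and 65.0 in Sham and 74.0, 77.4 and 81.3 in UNx, a difference of 22.6 points (limma adjusted p = 0.0779). The groups did not overlap at either of these neighbouring regions, while the next intronic region, 38.9 kb downstream, had overlapping groups at 88.8 to 96.1. On the other side of the gene, 34.0 kb upstream, an intergenic region ranked at 12.8, 0 and 15.9 in Sham and 43.1, 38.5 and 21.2 in UNx (limma adjusted p = 0.235). The strongest distal region, 42.6 kb upstream in an intron of Spo11, had means of 96.7 ± 0.531 in Sham and 96.8 ± 1.43 in UNx.

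Bmpr2 had 16 distal regions and the lowest median difference of the 8 genes, −1.83 points. The groups did not overlap at 2 of them (12.5%), against 17.7% of all distal regions. The intergenic region 132.3 kb downstream of the start (chr1:59895363-59895852) ranked at 30.0, 36.9 and 40.3 in Sham and 43.2, 49.8 and 45.8 in UNx (limma adjusted p = 0.567), a gap smaller than the range of either group. The other is a region found in UNx lists alone. The strongest distal region, 142.7 kb downstream, ranked at 73.3, 66.2 and 64.9 in Sham and 70.9, 77.8 and 68.1 in UNx.

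Presence split the operations cleanly at 3 of the 158 regions. A region in an intron of Bcl2l1, 51.1 kb downstream of the Id1 start (chr2:152787202-152787664), was in all 3 UNx lists and no Sham list among the 77355 strongest peaks, at 17.9, 17.5 and 49.1. The full deposited lists held it in 2 Sham libraries, and the difference of 28.2 points was 17.7 without UNx library 3. A region in an intron of Fam117b, 152.3 kb downstream of the Bmpr2 start (chr1:59915619-59915891), was likewise in all 3 UNx lists, at 17.1, 6.36 and 12.3, and in the full lists of 0 Sham libraries. Over all regions 1.04% were in all UNx lists and no Sham list. A region 99.0 kb downstream of the Bmp7 start (chr2:172840911-172841675) was in all 3 Sham lists and no UNx list, at 6.88, 9.80 and 20.7, against 0.934% of all regions, and the full lists held it in 2 UNx libraries. All 3 regions were weak in most libraries that had them, and none passed the test (limma adjusted p of 0.149, 0.387 and 0.376).

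None of the 7 regions that hold the BMP-SMAD composite was called by limma. The region 1.1 kb upstream of Id1 ranked at 67.1, 88.7 and 63.5 in Sham and 64.8, 58.8 and 74.3 in UNx. The region 1.8 kb upstream of Id2 ranked at 77.3, 84.2 and 80.9 in Sham and 78.9, 72.0 and 81.2 in UNx. Around Id3, the region 3.0 kb upstream had means of 74.8 ± 5.05 in Sham and 77.4 ± 1.67 in UNx. The region 1.3 kb downstream of the Id3 start had percentiles of 28.5, 37.1 and 48.4 in Sham and 44.9, 46.7 and 43.1 in UNx, and the one 4.4 kb downstream had 77.0 ± 9.51 and 72.4 ± 2.41 (SD, n = 3). The groups overlapped at all 5 of these. The Id4 region, 1.6 kb downstream of the start and at the start of another annotated transcript, was the exception: it ranked at 28.3, 47.4 and 54.3 in Sham and 56.1, 72.9 and 60.7 in UNx, without overlap by a small gap (limma adjusted p = 0.213). The Bmp7 region was weak, absent from 2 Sham lists, with means of 6.06 ± 10.5 and 14.98 ± 7.62.

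**Figure D5:**
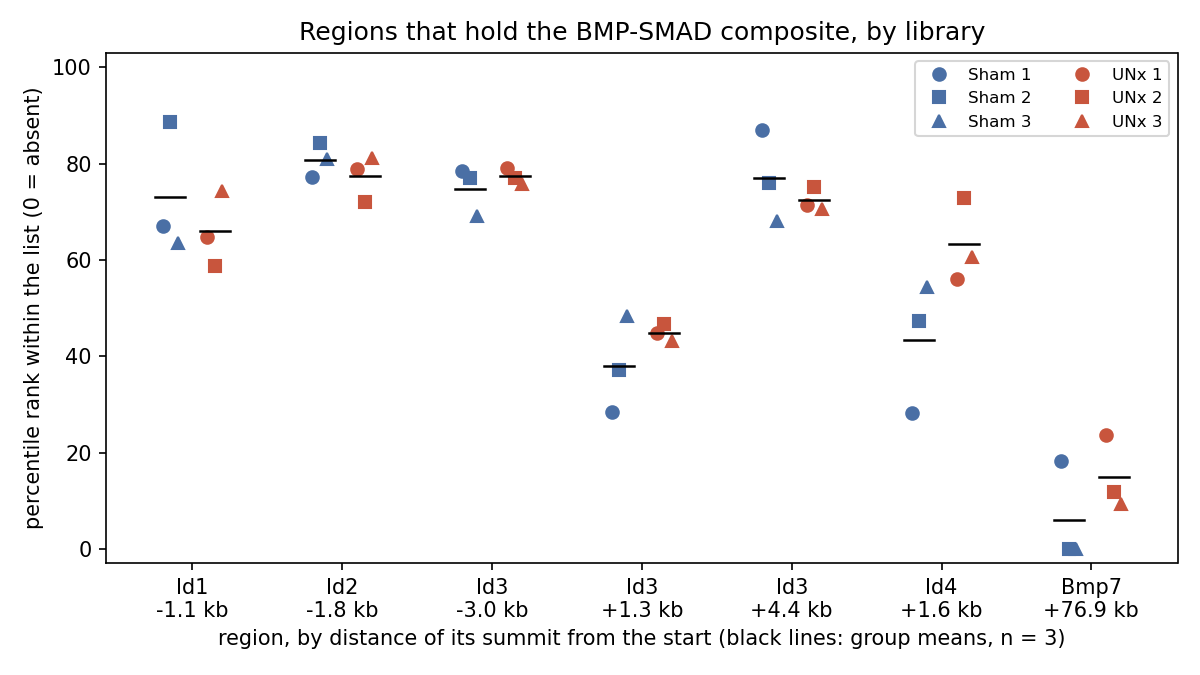
Percentile rank (vertical axis, 0 for absent) of the 7 regions whose 300-base window holds the BMP-SMAD composite, named by gene and by the distance of the summit from its start; each point is 1 library and black lines are the means of 3 libraries. The groups overlap at 6 of them, and at Id4 the UNx libraries, at 56.1 to 72.9, lie above the Sham libraries, at 28.3 to 54.3.

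The AP-1 string TGAGTCA occurred in 17 of the 158 windows (10.8%) and in 6.75% of all windows. Among the 21 regions of the 8 genes whose UNx libraries lay above all Sham libraries, 6 held it (28.6%), against 7.80% of the 8944 such regions overall. They were the Id3 regions 36.4 kb and 19.9 kb upstream, the Bmp7 regions 36.6 kb and 34.0 kb downstream and 34.0 kb upstream, and the Bmpr2 region found in UNx lists alone. The regions were chosen with results known, so this is a count with no test. The string occurred in 0 of the 7 regions that were lower in UNx and in 5.78% of all such regions. The composite occurred in 1 of the 21 (4.76%) and in 0.224% of the 8944. Among the 130 regions of the 8 genes with overlapping groups, 6 held the composite (4.62%) and 11 held TGAGTCA (8.46%). Over all regions with overlapping groups these shares were 0.179% and 6.74%.

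The other genes of the pathway were read at 1 promoter region each, the strongest whose interval came within 1 kb of an annotated start of the gene. Of 75 genes in 8 lists, 65 had such a region and 62 could be tested. limma called 0 of them, against 0.445% of all tested promoter regions. The latter are unlike them in 2 ways: their summit lies within 1 kb of any start, and they were not picked by rank. An unadjusted p under 0.05 was found at 11 of the 62, and at 2491 of the 16615 tested promoter regions. The difference was above 0 for 23 and below 0 for 39 of the 62, with a median of −1.59 points. Over all 19151 promoter regions, tested or not, it was above 0 for 9925 and below 0 for 9225, with a median of 0.144. All 6 genes of the SMAD list (Smad1, Smad5, Smad9, Smad4, Smad2 and Smad3) had a lower mean in UNx, with a median of −1.85. That is a count with no test over libraries that all 6 share. Smad2 and Smad3 are not among the BMP-receptor substrates named above, and their differences were −0.786 and −1.82 points. Smad5, a BMP-receptor substrate, ranked at 81.8, 89.2 and 84.2 in Sham and 69.3, 67.5 and 73.8 in UNx, without overlap (limma adjusted p = 0.0849). Smad4, the shared partner, ranked at 88.4, 90.4 and 91.6 in Sham and 83.6, 84.8 and 86.7 in UNx, also without overlap (limma adjusted p = 0.262).

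Among the ligands, 1 of 4 tested promoters had a higher mean in UNx, and Gdf11 had the smallest unadjusted p, at 66.9, 69.1 and 73.4 in Sham and 64.2, 32.5 and 41.9 in UNx (limma adjusted p = 0.131). Bmp6, a ligand known for iron control in the liver, ranked at 89.7, 94.0 and 92.2 in Sham and 89.3, 90.3 and 87.1 in UNx. Among the receptors and co-receptors, 2 of 10 were higher. The type I receptor gene Bmpr1a had means of 92.8 ± 1.54 in Sham and 86.7 ± 6.01 in UNx, and the co-receptor gene Rgma 67.0 ± 7.39 and 78.6 ± 3.84 (limma adjusted p of 0.228 and 0.236). Of the secreted antagonists 3 of 8 were higher. Chrd, whose product chordin binds BMPs outside the cell, ranked at 77.0, 68.5 and 63.6 in Sham and 79.6, 78.5 and 89.0 in UNx, and Fstl1 had means of 26.9 ± 5.23 and 6.37 ± 7.71 (limma adjusted p of 0.170 and 0.266).

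The intracellular inhibitors had 5 of 13 promoters higher in UNx, with the smallest unadjusted p at the phosphatase gene Ctdsp2 (88.3 ± 0.858 and 82.6 ± 3.34) and the ubiquitin ligase gene Smurf1 (82.2 ± 6.93 and 74.6 ± 5.88). Of the other BMP targets 7 of 10 were higher, the median being 4.21 points, and Msx2 had a promoter peak in 1 Sham and 2 UNx lists. Hes1, a transcriptional repressor, had means of 62.1 ± 7.85 and 71.0 ± 5.00. The TGF-beta arm had 4 of 8 higher, with Tgfbr2 at 77.0 ± 4.30 and 85.8 ± 3.16 and Tgfb2 at 45.2 ± 6.14 and 62.3 ± 7.62. Of the E proteins that ID proteins bind, Tcf12 had means of 85.4 ± 5.06 in Sham and 73.9 ± 12.7 in UNx, and Tcf3 97.8 ± 0.314 and 95.1 ± 3.77. None of these passed the test.

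Promoters of marker genes were used to check the labelled tissue. Of 11 S1 markers, 10 had a promoter region in all 6 lists, and the list's mean percentile was 74.2 to 76.2 in Sham and 74.8 to 76.6 in UNx. All 7 immune markers were at 0 in every library. Slc22a8 was the S1 marker at 0. Markers of other cells were partly open. Slc12a3, Aqp2, Plvap and Pdgfrb were among those at 0 in every library. Of the 9 loop, distal tubule and collecting duct markers 4 were in all 6 lists. Among these, Fxyd4 ranked at 82.67 to 89.65 and Slc26a4 at 57.68 to 74.35. The loop gene Umod ranked at 65.0 to 74.2 and the glomerular endothelial gene Ehd3 at 80.3 to 96.9. Of the 11 endothelial markers only 2, Ehd3 and Egfl7, had a promoter region in all 6 lists. Among the 7 markers of stroma, pericytes and smooth muscle, 3 were in all 6 lists (Pdgfra, Col1a1 and Tagln) and 2 were at 0. The lists of other cell types differed to varying extents between the operations, with no test. The summed percentile of the 7 markers of the later proximal segments, S2 and S3, was 243 to 296 in Sham and 189 to 213 in UNx, with Slc7a13 at 0. That of the 9 loop, distal tubule and collecting duct markers was 272 to 284 and 233 to 257, with 5 of them at 0. Of 6 tested S2 and S3 markers 5 had a lower mean in UNx and 1 a higher one, with Slc7a12 at −28.7 points and Slc22a7 at −16.5. In the loop list 3 of 4 tested were lower, Slc12a1 by the most at −26.7 points, and Umod was higher by 3.91. The sums did not overlap between the groups for these 2 lists, and they overlapped for the next 2. The 11 endothelial markers summed to 172 to 188 in Sham and 125 to 180 in UNx. The 6 podocyte and parietal markers summed to 230 to 278 and 269 to 312, and 1 of them was called: Synpo, an actin-associated podocyte gene, at 52.5, 46.6 and 40.1 in Sham and 71.7, 80.8 and 80.0 in UNx (limma adjusted p = 0.0373). That call was lost in 15 of 17 alternative settings, among them leaving out any 1 library (limma adjusted p of 0.0843 to 0.136). The podocyte gene Nphs1 had overlapping groups. Sums of the 7 stroma, pericyte and smooth muscle markers also overlapped, at 235.3 to 256.5 in Sham and 204.7 to 261.1 in UNx. The part of these lists in the differences at the 8 genes was not tested.

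Over all tested regions outside the 8 loci, the 2 patterns most like that of the Id3 region 36.4 kb upstream, by Euclidean distance over the 6 percentiles, were in introns of Pdxk (16.97) and Vnn1 (19.87). The Pdxk region (chr10:78463139-78464089) ranked at 6.85, 0 and 0 in Sham and 69.5, 52.8 and 68.2 in UNx. They were found by searching for this pattern, so their values are a description.

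The 50 kb limit decided a few regions. The Id1 region found in UNx lists alone lay 72 bp inside it, and the next Id1 region outside, 5223 bp beyond it, had means of 69.7 ± 2.49 in Sham and 80.1 ± 3.45 in UNx. For Smad7 the last region inside was 179 bp from the limit, with means of 57.8 ± 15.7 and 65.7 ± 2.34, and the first outside was 1141 bp beyond it and found in 1 list. The 1 kb promoter limit left out the Id1 region with the composite, whose summit is 1060 bp from the start, and kept the Smad6 promoter, at 916 bp.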

How the data were processed

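One peak list per library was deposited, so peaks were called in each library separately. Per the submitters' processing notes the tools were cutadapt 3.4, Bowtie, SAMtools, Picard and MACS2 2.2.7.1 and the build was mm10; their settings, and what the word filtered in the list names stands for, are not given in the sources used here. The deposited lists give a display score, fold enrichment over background as a ratio, a summit position, the −log10 p and the −log10 q; these are the authors' values and were used to describe and rank peaks within a list. Read depth is unknown, so no interval that needs it is given.

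A peak was 1 interval with its strongest summit. The 77355 strongest peaks of each list were ranked by −log10 q, and intervals sharing 1 bp or more formed 99359 regions (Python 3.11.15, pandas 2.3.3, bedtools 2.31.1). Percentiles of the 74781 regions in at least 3 lists were compared by limma 3.58.1 in R 4.3.3 (eBayes with a variance trend and robust fitting; two-sided; adjusted by Benjamini-Hochberg over all of them, threshold 0.05).

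The members and lists were chosen with earlier results of these data known. Regions named were, for each gene, the main promoter, the strongest distal region, up to 2 distal regions with the largest difference among those called or without overlap, the Id3 region 36.4 kb upstream, and regions exclusive to 1 operation; for each pathway list, the 2 promoters of smallest unadjusted p; and the 3 regions most like the Id3 region. Some items that the rule or the lists select are not reported here. Regions named beyond that rule (further regions of the Id genes and of Bmp7, the second promoter regions, the regions with the composite, Smad1 to Smad9 as a list and single markers) were chosen after their values were seen. Alternatives were other numbers of peaks, ranking by fold enrichment, another overlap, other scales, variance models, gene and promoter windows, the replicate number as a block, and leaving out each library. Those of the marker Synpo were added after its call was seen. Replicate numbers come from the labels; deviations of same-numbered libraries had correlations of 0.00819, −0.1002 and −0.0496, and the libraries were not treated as pairs.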

Additional observations from a re-analysis of the deposited data

How the results depend on the processing

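The count of called regions of the 8 genes was 1. It was 0 with ranking by fold enrichment, with all deposited peaks, with the 20000 strongest, with regions in fewer than 3 lists also tested, with GC-corrected ranks, with the replicate block with GC-corrected ranks, and a window of 20 kb, which does not reach the Id3 region. It was 2 with normal scores (adding the Id3 region 19.9 kb upstream) and 2 with a window of 100 kb (adding a region farther downstream of Smad7), and 4 with array weights (adding the Id3 region 19.9 kb upstream, the Id2 region 35.1 kb upstream and the Bmp7 region 36.6 kb downstream). Leaving out 1 library gave 0 to 1, with 0 without Sham library 2, Sham library 3, UNx library 1 or UNx library 3. The replicate block gave 1. Calls over all tested regions moved too, from 589 in the main setting. They fell to 3 by fold enrichment, 22 with all deposited peaks and 2 with the 20000 strongest. With regions in fewer than 3 lists also tested they were 2, with GC-corrected ranks 2, and with GC-corrected ranks and the replicate block 0. They were 56 with the replicate block alone and 4 to 76 with 1 library left out. They rose to 1583 with normal scores and 1452 with array weights. The difference at the Id3 region 36.4 kb upstream stayed above 0 in all of the alternatives that gave a value. That region was known to be higher in UNx when the genes were chosen. With groups that do not overlap, leaving out a library could not turn the sign, so nothing is drawn from it. The pathway promoters had 0 calls under all alternatives run.

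The distal median was 3.27 with all deposited peaks, −0.69 with the 20000 strongest, 5.08 with peaks under a −log10 q of 5 left out and −0.0414 by fold enrichment, where the medians over all distal regions were 2.04, 0.482, 2.84 and 0.295, and 0.470 to 1.73 with 1 library left out. The promoter median was −7.14 with the 20000 strongest and −9.98 by fold enrichment, turned to 0.440 with all deposited peaks and 1.07 with peaks under a −log10 q of 5 left out (medians over all promoter regions −0.537, −0.636, 1.17 and 1.57), and −1.07 to 0.134 with 1 library left out.

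By fold enrichment the differences fell in size to 14.96 for Id3 at 19.9 kb, 2.76 for Smad6 at 4.8 kb and 8.60 for Bmp7 at 36.6 kb. With the 20000 strongest peaks Id3 at 19.9 kb had 8.997. When peaks were merged at a reciprocal overlap of 50%, the Smad6 promoter had 25.78, against 5.79 in the main setting. Some named differences changed sign; none of these had passed the test. By fold enrichment the Id1 promoter had −7.39, the Smad6 promoter −6.02, Smad6 at 53.3 kb −9.89, Id2 at 13.3 kb −2.10 and Bmp7 at 42.6 kb −0.960. With the 20000 strongest peaks the Id1 promoter had −3.83. With GC-corrected ranks, with or without the replicate block, the Id1 promoter had −0.395, Id3 at 37.1 kb −1.17 and Smad6 at 53.3 kb −0.299. With array weights Id3 at 37.1 kb had −0.507 and Bmp7 at 42.6 kb −0.0799. With all deposited peaks, and with peaks under a −log10 q of 5 left out, the Id3 promoter had 0.440 and 1.07 and the Id4 promoter 0.333 and 0.659. With 1 library left out, the ranges that cross 0 were −4.20 to 0.111 for Id1 at 28.4 kb, −2.36 to 5.93 for the Id1 promoter, −3.89 to 0.688 for the Id3 promoter, −1.56 to 2.83 for Id3 at 37.1 kb, −2.73 to 0.815 for the Id4 promoter, −0.706 to 0.582 for Bmp7 at 42.6 kb and −4.93 to 0.228 for the Bmpr2 promoter. The causes were not tested.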
